A study of Mus musculus with 2 samples.

Results

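Genes of the extracellular matrix around neural progenitors were examined in single cells of mouse neurospheres: 10 members, each with 1 row in the deposited expression table of 10666 genes. They were chosen by symbol: the receptor-type proteoglycan *Ptprz1* and its ligand *Ptn*, the lecticans *Bcan*, *Ncan* and *Vcan*, the membrane proteoglycan *Cspg5*, the glycoprotein *Tnc*, the heparan sulfate proteoglycans *Gpc4* and *Sdc3*, and the matricellular gene *Sparcl1*. The cells came from 2 replicate cultures of wild-type C57BL/6 dorsal telencephalon at embryonic day 14.5, grown as neurospheres with EGF and bFGF at 10 ng/ml each. Both cultures belong to 1 condition, so there was no second group to test against and p-values are not reported. Culture 1 holds 5748 cells and culture 2 holds 7057 cells, with medians of 19477 and 14637 UMIs per cell, and 48 cell barcodes occur in both. Neurospheres are a growth factor-driven culture system and lack the vessels, meninges and ventricular surface of the embryonic cortex.

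Neural progenitors sit in a matrix rich in chondroitin sulfate proteoglycans, in which lecticans bind hyaluronan through one end and tenascins through the other. Receptor-type tyrosine phosphatase zeta carries chondroitin sulfate chains and binds the growth factor pleiotrophin, tenascin and contactin on neighbouring cells. Glypicans and syndecans carry heparan sulfate at the membrane, where it binds FGF and other heparin-binding ligands, and Sparcl1 is a secreted glycoprotein of the SPARC family.

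The labelled tissue was checked against markers. Radial glia markers ranged widely, from *Fabp7*, a fatty acid-binding protein, at a mean value of 91.9 in culture 1 and 90.7 in culture 2, and *Nes*, encoding nestin, at 4.71 and 4.46, down to *Hopx* at 0.264 and 0.2999. *Pax6*, a transcription factor of dorsal radial glia, was at 0.215 and 0.205, with a value in 21.1% and 23.1% of cells, below the median gene of the table at 0.233 and 0.213. Of 11 radial glia markers 9 were measured, and the median cell had a summed log2(value + 1) of 24.5 and 23.5. The oligodendrocyte progenitor marker *Olig2* was also widespread, with a value in 97.3% and 91.9% of cells. Of 10 marker lists, those of intermediate progenitors, microglia, endothelium, meningeal fibroblasts and erythroid cells had no gene among the rows used here, so such cells could not be looked for.

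All 10 members are protein-coding. In GRCm38 (GENCODE vM21), *Ptprz1* lies at chr6:22875502-23052916 (+), *Ptn* at chr6:36714929-36810220 (-), *Bcan* at chr3:87987531-88000230 (-), *Ncan* at chr8:70093085-70120873 (-) and *Vcan* at chr13:89655312-89742509 (-). *Cspg5* lies at chr9:110243783-110262576 (+), *Tnc* at chr4:63959785-64047015 (-), *Gpc4* at chrX:52053021-52165252 (-), *Sdc3* at chr4:130792537-130826319 (+) and *Sparcl1* at chr5:104079111-104113733 (-). Of these, 6 overlap another annotated gene, none of which is a row of the table, and only the microRNA gene within *Ncan* is on the same strand.

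Promoters are shown for 4 members with different company in single cells: *Bcan* and *Ncan*, which were weakly positive with each other, *Vcan*, which went with oligodendrocyte progenitor markers, and *Tnc*, which was negative with *Bcan*. RefSeq (GRCm38.p6) start sites were given for 8 of the 10 members, and those of *Cspg5* and *Sparcl1* are not shown. Each line is the 250 bases before the start, 5′ to 3′ on the gene's strand, with matches to the E-box CANNTG in capitals; the windows are chr3:88000357-88000606 (-), chr8:70120845-70121094 (-), chr13:89742513-89742762 (-) and chr4:64047016-64047265 (-).
Bcan: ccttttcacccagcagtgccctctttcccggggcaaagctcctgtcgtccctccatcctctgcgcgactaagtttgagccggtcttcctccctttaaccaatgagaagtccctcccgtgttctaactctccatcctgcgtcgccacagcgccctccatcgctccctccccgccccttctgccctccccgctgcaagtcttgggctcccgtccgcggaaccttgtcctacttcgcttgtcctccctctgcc
Ncan: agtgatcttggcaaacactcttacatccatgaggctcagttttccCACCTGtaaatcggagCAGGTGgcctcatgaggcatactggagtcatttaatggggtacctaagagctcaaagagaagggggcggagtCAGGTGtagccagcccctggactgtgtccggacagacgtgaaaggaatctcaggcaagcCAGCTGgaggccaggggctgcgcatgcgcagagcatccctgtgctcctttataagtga
Vcan: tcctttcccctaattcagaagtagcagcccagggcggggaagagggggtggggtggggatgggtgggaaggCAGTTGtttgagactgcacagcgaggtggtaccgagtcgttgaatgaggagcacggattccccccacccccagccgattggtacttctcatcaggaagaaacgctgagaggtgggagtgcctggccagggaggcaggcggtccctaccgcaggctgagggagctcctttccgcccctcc
Tnc: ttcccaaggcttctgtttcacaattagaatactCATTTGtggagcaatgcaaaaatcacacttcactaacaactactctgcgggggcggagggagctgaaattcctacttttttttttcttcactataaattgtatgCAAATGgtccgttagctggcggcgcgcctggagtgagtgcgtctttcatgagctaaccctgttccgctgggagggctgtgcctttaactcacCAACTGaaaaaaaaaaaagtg
The *Ncan* window holds 4 E-box matches, the *Tnc* window 3, the *Vcan* window 1 and the *Bcan* window 0, where 66.2% of 32851 RefSeq windows of this length hold at least 1. TATAAA or its complement occurs in 12.4% of all windows. The *Ncan* window holds the complement TTTATA 11 bases before the start, and the *Tnc* window TATAAA 126 bases before it. CCGCCC or its complement occurs in 8 of the 9 windows of the members (*Tnc* has 2 starts) and in 32.7% of all windows. The letters ACAAAG or AACAAT, to which SOX factors can bind, occur in 0 of the 9 windows and in 24.0% of all. These are matches of letters only.

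*Ptn* was the most abundant member, and *Ptprz1*, its receptor, came next. *Ptn* had a mean value of 34.8 in culture 1 and 30.7 in culture 2, higher than 99.5% and 99.4% of all genes. It was present in nearly every cell, with a value in 99.8% (95% exact binomial interval 99.6 to 99.9) of cells of culture 1 and in 100% (99.9 to 100) of culture 2. *Ptprz1* had a mean value of 6.58 and 6.18 and was detected in 98.8% (98.5 to 99.1) and 90.9% (90.2 to 91.6) of cells. Intervals cover counting error only. The ligand alone made up 66.3% and 64.3% of the summed values of the 10 members. The values are a depth-normalised signal from a 3′ UMI library, in which a molecule is counted once, so they were not divided by gene length.

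The neural lecticans and *Cspg5*, the gene of neuroglycan C, formed the next tier. *Ncan* (neurocan) had a mean of 3.40 in culture 1 and 3.75 in culture 2, *Cspg5* 2.73 and 2.75, and *Bcan* (brevican) 2.49 and 2.09. The third lectican, *Vcan* (versican), was lower, at 0.265 and 0.233, with a value in 24.1% (23.0 to 25.2) and 13.1% (12.4 to 13.9) of cells. Versican was thus the rare lectican of these cultures, on the deposited scale and by the share of cells.

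As with *Vcan*, the other 4 members were found in a minority of cells. *Sparcl1* had a mean of 0.968 and 0.841, *Tnc* (tenascin C) 0.680 and 0.623, *Sdc3* (syndecan 3) 0.362 and 0.367, and *Gpc4* (glypican 4) 0.204 and 0.166. *Gpc4* was the lowest member, and the only one below the median gene of the table, whose mean was 0.233 and 0.213. The order of the 10 mean values was the same in both cultures, and the ranges of neighbours in that order did not overlap. The median cell had a value for 6 of the 10 members in culture 1 and for 5 in culture 2. A cell type that should lack these genes was not set apart here, so the part of free RNA in the low shares was not measured.

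**Figure D1:**
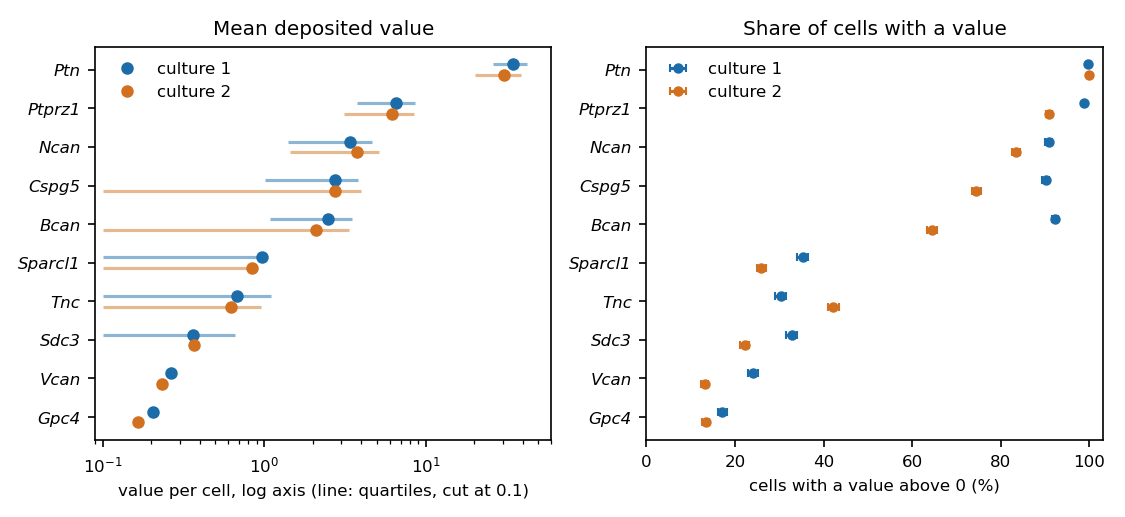
Mean deposited value per cell on a log axis (left; points are means over the cells of a culture, lines run from the lower to the upper quartile of cells, drawn from 0.1 where the lower quartile is below it, with no line where the upper quartile is 0) and share of cells with a value above 0 in percent (right; bars are 95% exact binomial intervals) for the 10 genes in culture 1 (5748 cells) and culture 2 (7057 cells). Mean values nearly coincide between cultures, while shares differ, most of all for *Bcan* (92.3% and 64.6%).

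*Bcan* had a value in 92.3% (91.6 to 93.0) of cells of culture 1 and 64.6% (63.4 to 65.7) of culture 2, while its mean value was 0.25 higher on the log2 scale. *Tnc* went the other way, with 30.3% (29.1 to 31.5) and 42.2% (41.1 to 43.4), while its mean value was 0.13 higher in culture 1 on the log2 scale. The shares also differed at matched depth. Among cells with 15000 to 20000 UMIs, 1628 in culture 1 and 2196 in culture 2, *Bcan* was detected in 91.0% and 67.5% and *Tnc* in 30.3% and 48.3%. The difference for *Bcan*, 23.4 points higher in culture 1, was larger than that of 99.7% of all genes, and the difference for *Tnc*, 18.0 points higher in culture 2, was larger than that of 98.5%, where the median gene differed by 2.35 points. *Cspg5* was detected in 89.7% and 75.6% of these cells, a difference of 14.0 points. *Gpc4* differed least of the members below saturation, with 15.7% and 14.4%.

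The deposited value of 1 UMI was not the same in both cultures. Divided by a factor of the cell, the values of a gene fall on evenly spaced steps, and for *Tnc* a step was worth 1.47 in culture 1 and 0.741 in culture 2. For *Bcan* it was worth 0.759 and 1.36. Such steps were found in both cultures for 8 members, and not for *Ptprz1* and *Ptn*, whose values are high. Turned into approximate UMIs, *Bcan* had 1.92 per 10000 UMIs in culture 1 and 0.767 in culture 2, a ratio of 2.50, and *Tnc* had 0.259 and 0.496, a ratio of 1.91 in the other direction. *Bcan* in culture 1 is the least exact of these, since 69.4% of its low values lay within 0.1 UMI of a multiple of 0.5 UMI, where 40% would if they were spread evenly, against 91.0% and 92.7% for *Tnc*.

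The other members differed less in approximate UMIs. *Cspg5* had 1.76 and 1.14 per 10000 UMIs, *Vcan* 0.150 and 0.0972 and *Sparcl1* 0.612 and 0.404, each about 1.5 times as high in culture 1. *Ncan* had 2.15 and 1.75 and *Sdc3* 0.208 and 0.173, each 1.2 times as high in culture 1. *Gpc4* had 0.0989 and 0.102. In these units 3 pairs of members changed places between cultures, *Bcan* and *Cspg5*, *Tnc* and *Sparcl1*, and *Vcan* and *Gpc4*, so the shared order of the deposited means does not hold for molecules. With 1 library a culture, a difference between the cultures has no replicate check, and all relations that follow are given within each culture.

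**Figure D2:**
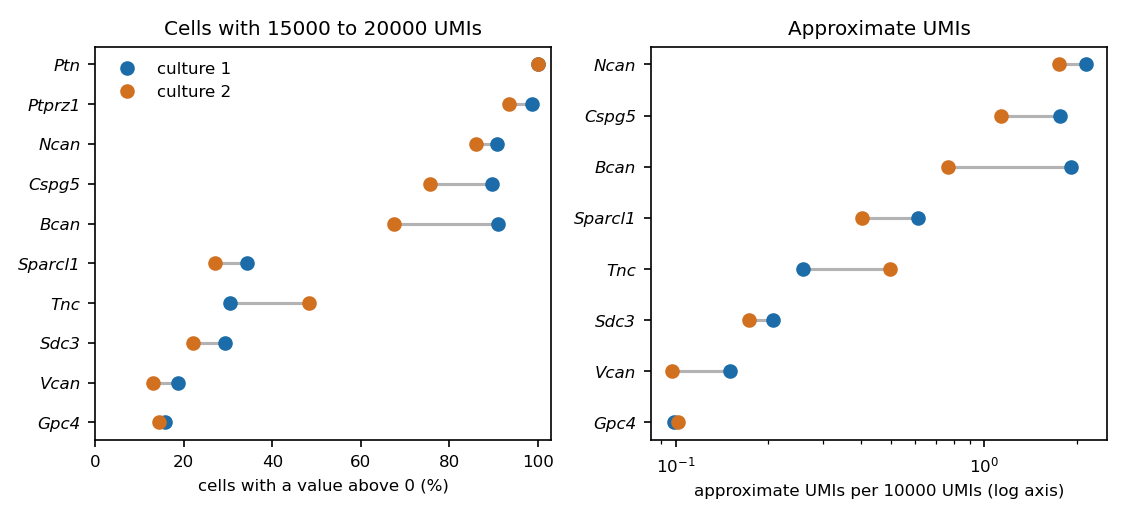
Share of cells with a value above 0 among cells with 15000 to 20000 total UMIs, in percent (left), and approximate UMIs per 10000 UMIs on a log axis for the 8 genes whose steps were found (right), for both cultures, joined by a grey line for each gene. *Bcan* (91.0% and 67.5%) and *Tnc* (30.3% and 48.3%) lie farthest apart and in opposite directions.

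The members also differed in how evenly cells held them. The spread was measured as the squared coefficient of variation of approximate UMIs over cells, less the part that random sampling of the mean count gives, which leaves the spread of depth in. Of the 8 members with steps it was highest for *Sparcl1*, at 4.81 in culture 1 and 4.99 in culture 2. *Tnc* had 2.44 and 1.24 and *Vcan* 1.52 and 1.93. *Gpc4* had 0.903 and 1.51, and *Ncan* 0.776 and 0.605. *Sdc3*, *Bcan* and *Cspg5* had the lowest values in culture 1, at 0.428, 0.436 and 0.415, and in culture 2 they had 0.738, 0.592 and 0.491. The 10% of cells highest in *Vcan* held 68.6% and 89.1% of its summed values, and for *Gpc4* they held 73.5% and 85.5%, where a value was found in 17.2% and 13.4% of cells. For *Sparcl1* the highest 10% held 64.6% and 71.6%, with a value in 35.3% and 26.0% of cells, and for *Ptn* 17.2% and 20.2%.

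Co-expression of the members within single cells was weak. Over the 45 pairs, the median Pearson r of log2(value + 1) was 0.0495 (mean of both cultures), and it was 0.102 when values were multiplied by total UMIs and 0.0146 in approximate UMIs over the 28 pairs that could be formed. By the deposited values, r was positive in both cultures for 24 pairs, negative in both for 9 and of mixed sign for 12. The cells of a culture share a library and differ in depth, so these r are descriptions. The median r of the members with the other 10656 genes, which were not matched to them in level, was 0.00317. Only 7 pairs reached 0.1 in both cultures, and all 7 lie among *Ptprz1*, *Cspg5*, *Bcan*, *Ncan* and *Sparcl1*. The shares of all gene pairs at that level, and of each sign in both cultures, were not computed. The counts of pairs are thus not read as high or low. *Tnc*, *Vcan*, *Gpc4*, *Sdc3* and *Sparcl1* had a value in a minority of cells, and the part of detection in r was not tested.

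The pair with the highest mean r was *Bcan* and *Cspg5*, with 0.197 in culture 1 and 0.161 in culture 2. *Ptprz1* and *Cspg5* had 0.217 and 0.124, *Ncan* and *Sparcl1* 0.220 and 0.106, and *Bcan* and *Ncan* 0.159 and 0.111. Cells were also ranked by 1 member, and the highest and lowest 20% were compared, with tied cells kept together. Cells highest in *Bcan* had a mean *Cspg5* value of 3.42 and 3.63, against 2.12 and 2.36 in those lowest in it, and a mean *Sparcl1* value of 1.48 and 1.40 against 0.613 and 0.604. Cells highest in *Ncan* had a mean *Sparcl1* value of 1.81 and 1.38 against 0.522 and 0.646. The *Sparcl1* level thus differed by 2.1 to 3.5 times between the ends of these rankings. With depth and cell-cycle position taken out, r was 0.188 and 0.157 for *Bcan* and *Cspg5*, and 0.179 and 0.102 for *Ncan* and *Sparcl1*.

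The ligand and its receptor were no exception. *Ptn* and *Ptprz1* had an r of 0.0764 and 0.0333, and cells highest in *Ptprz1* had a mean *Ptn* value of 35.4 and 32.1 against 33.2 and 30.1 in those lowest in it. *Tnc*, whose protein binds lecticans and *Ptprz1*, was negative with *Bcan* at -0.0932 and -0.0493, and with *Cspg5* at -0.142 and -0.0876. Cells highest in *Cspg5* had a mean *Tnc* value of 0.425 and 0.448, against 0.954 and 0.697 in those lowest in it. *Vcan* was negative with *Ptn* at -0.172 and -0.0561. It had -0.0105 and 0.0131 with *Bcan*, so r between these lecticans changed sign between cultures.

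**Figure D3:**
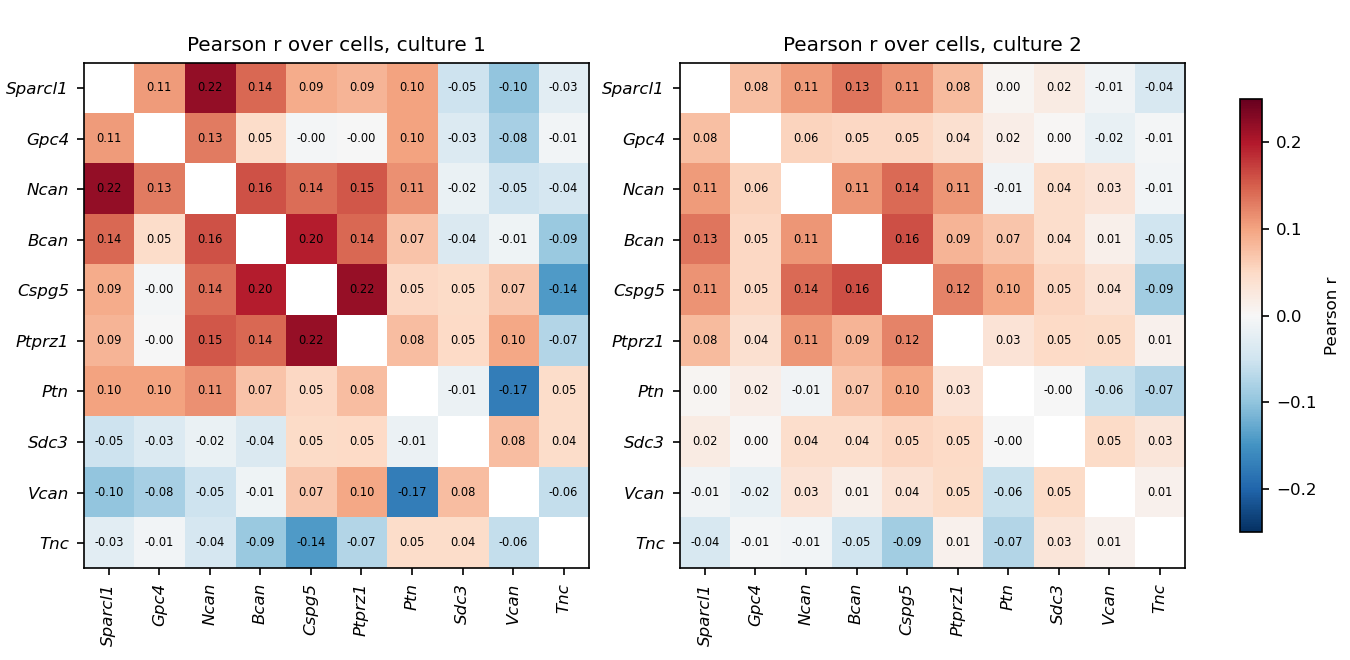
Pearson r of log2(value + 1) over cells for each pair of the 10 genes in culture 1 (left) and culture 2 (right), colour from -0.25 to 0.25. The block from *Sparcl1* to *Ptprz1* is mostly red, with 0.217 for *Ptprz1* and *Cspg5* in culture 1, and blue cells lie mainly in the rows of *Vcan*, *Tnc* and, in culture 1, *Sdc3*, with -0.172 for *Vcan* and *Ptn* and -0.0521 for *Sdc3* and *Sparcl1* in culture 1.

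The genes most like each member were ranked by the lower r of the cultures over all genes of the table. *Ptn* was most like *Fabp7*, with 0.496 in culture 1 and 0.331 in culture 2, the highest r of any member, followed by *Eno1*, *Prdx1*, *Dbi* and *Mdh1* with a lower r of 0.240 to 0.259. *Tnc* was most like *Gap43*, at 0.247 and 0.255, followed by the intermediate filament genes *Vim* and *Nes*, by *Sparc* and by *Tagln2*. *Ncan* was most like *Mt3*, at 0.349 and 0.261, and its first 5 also held *Pea15a*, *Ccnd2* and the glutamate transporter gene *Slc1a3*. The first 5 of *Bcan* held *Slc1a3*, at 0.199 and 0.190, with *Mt3*, *Cspg5* and *Slc4a4*. *Gpc4* was most like *Mt3*, at 0.230 and 0.195, followed by *Igfbp2*, *Slc1a3*, *Slc4a4* and *Pea15a*. *Mt3* and *Slc1a3* thus stand in the first 5 of 3 members, *Bcan*, *Ncan* and *Gpc4*.

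*Sparcl1* was most like *Igfbp2*, at 0.318 and 0.244, followed by *Txn1*, *Timp4*, *Atp5mpl* and *Cox8a*. *Vcan* was most like *Lhfpl3*, an oligodendrocyte progenitor marker, at 0.304 and 0.161, followed by *Basp1*, *Eef1a1*, *Cntn1* and *Ncald*. *Cntn1*, the gene of contactin 1, also stands in the first 5 of *Ptprz1*. *Ptprz1* was most like *Ednrb*, at 0.184 and 0.135, followed by *Gria2*, *Fabp7*, *Cspg5* and *Cntn1*. *Cspg5* was most like *Scrg1*, at 0.194 and 0.167, followed by *Bcan*, *Cox6a1*, *Ednrb* and *Ncan*. *Sdc3* had no neighbour with a lower r above 0.0881, that of *Gap43*, so no likeness is read from its list.

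The members differed in their r with marker lists. Not all markers were measured: 6 of 10 for astrocytes, 6 of 9 for oligodendrocyte progenitors and 5 of 14 for neuroblasts and neurons. With the 6 measured astrocyte markers, led by *Apoe* at 1.89 and 4.35, *Ncan* had an r of 0.318 in culture 1 and 0.220 in culture 2, *Sparcl1* 0.303 and 0.187, *Bcan* 0.253 and 0.190, *Cspg5* 0.107 and 0.186, and *Gpc4* 0.163 and 0.118. *Ptprz1*, at 0.1005 and 0.0762, and *Ptn*, at 0.123 and 0.0443, were also positive in both cultures. Cells were ranked along the list, and the lowest group held 1150 cells in culture 1 and, with ties, 1983 in culture 2. In these lowest cells *Sparcl1* had a mean of 0.320 in culture 1 and 0.575 in culture 2, against 1.90 and 1.58 in the highest 20%, and *Ncan* had 2.48 and 3.24 against 4.93 and 5.26. *Vcan* was negative, at -0.153 and -0.0310, and so was *Tnc*, at -0.0926 and -0.0926, with 0.682 and 0.697 in the lowest cells and 0.407 and 0.475 in the highest. Median depth moved with this list, with 14818 and 13436 UMIs in the lowest cells and 21640 and 14800 in the highest, and its part in the means was not tested. With depth and position taken out, r was 0.238 and 0.216 for *Ncan*, 0.244 and 0.182 for *Sparcl1* and 0.133 and 0.188 for *Cspg5*.

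With the 6 measured oligodendrocyte progenitor markers, *Vcan* had the highest r, 0.271 and 0.148, then *Cspg5* with 0.194 and 0.126, *Sdc3* with 0.141 and 0.0991 and *Ptprz1* with 0.135 and 0.110. *Cspg5* and *Ptprz1* were thus positive with both this list and the astrocyte list. Cells highest in this list had a mean *Vcan* value of 0.593 in culture 1 and 0.427 in culture 2, against 0.138 and 0.172 in the lowest, and *Sdc3* had 0.552 and 0.510 against 0.259 and 0.263. *Sparcl1* had the reverse order, with 0.337 and 0.666 in the highest cells against 1.37 and 0.933 in the lowest, as did *Gpc4*, with 0.0761 and 0.120 against 0.271 and 0.185. The highest cells had a median of 14589 and 14213 UMIs and the lowest 21093 and 14264, so in culture 1 depth went against this list, and its part in the means was not tested. Beside *Olig2*, a value was found for *Lhfpl3* in 41.7% and 24.5% of cells, for *Nkx2-2* in 28.1% and 26.2%, for *Cspg4* in 11.8% and 13.7%, for *Pdgfra* in 8.77% and 1.81% and for *Sox10* in 4.26% and 0.751%.

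*Ptn* went with the radial glia list, with 0.529 and 0.303, and its mean was 39.6 and 36.2 in the highest cells against 26.1 and 25.4 in the lowest. Its nearest gene *Fabp7* and also *Dbi* are in that list. *Ncan* was also positive with the radial glia list, at 0.245 and 0.136, and *Ptprz1*, *Tnc*, *Bcan*, *Gpc4* and *Sparcl1* were so at lower r. *Cspg5* and *Sdc3* changed sign between cultures, and *Vcan* was negative, at -0.203 and -0.0449. With depth and position taken out, *Cspg5* had 0.0195 and 0.142 and no longer changed sign, while *Sdc3* still did. *Tnc* then had 0.0961 and 0.00222. With the 5 measured neuroblast and neuron markers, *Vcan* had 0.232 and 0.0924, *Ptprz1* 0.135 and 0.0913 and *Cspg5* 0.142 and 0.0571. *Bcan* and *Sdc3* were also positive in both cultures, *Ncan*, *Gpc4*, *Ptn* and *Sparcl1* were negative in both, and *Tnc* changed sign. With depth and position taken out, *Tnc* had 0.00282 and 0.0486. In that list *Stmn3* had a value in 85.4% and 54.2% of cells and *Map2* in 77.7% and 63.6%, while *Dcx*, *Gad1* and *Rbfox3* each had one in under 10%. Cells were ranked along each list and not sorted into types.

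**Figure D4:**
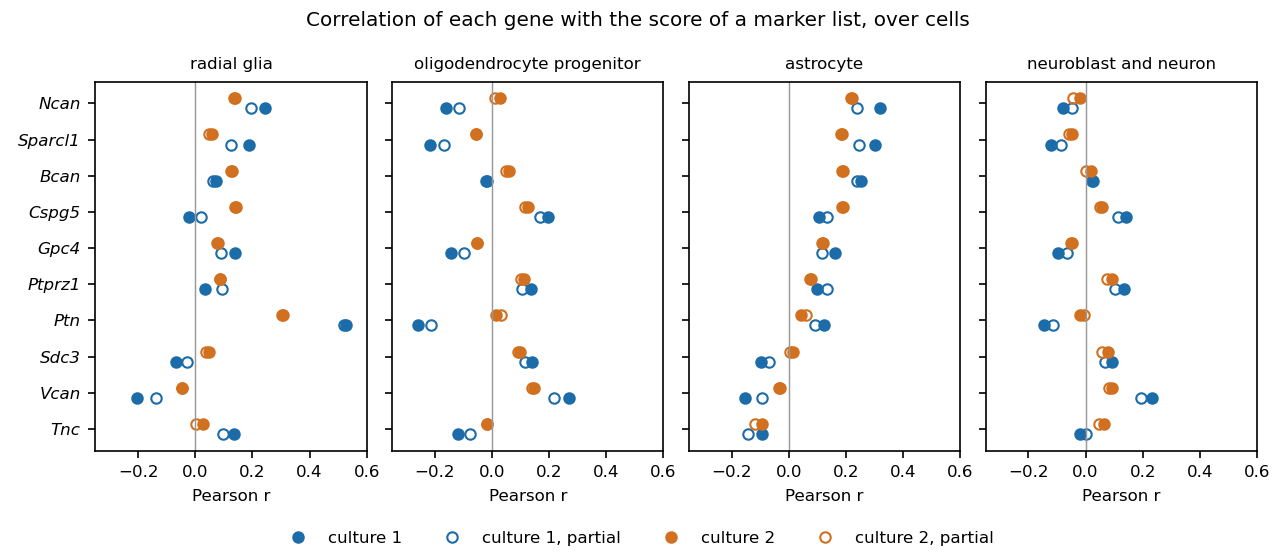
Pearson r over cells between log2(value + 1) of each gene and the mean log2(value + 1) of the measured markers of a list, for 4 lists; filled points are r in each culture and open points the partial r with depth and cell-cycle position taken out. For the astrocyte list 7 genes lie right of 0 in both cultures, *Ncan* farthest (0.318 and 0.220), and *Vcan* and *Tnc* lie left of it; *Vcan* lies farthest right for the oligodendrocyte progenitor list (0.271 and 0.148) and *Ptn* for the radial glia list (0.529 and 0.303).

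None of the 10 members reached the level used for calling variation with the cell cycle. The cell-cycle position θ is the angle, from 0 to 2π, that the authors assigned to each cell, and a gene was called when 2 harmonics of θ took up at least 0.05 of the variance of its log2(value + 1) in both cultures. By this rule 0 of 10 members were called, where 4.01% of all 10666 genes were, so the count does not set the members apart. For the members found in a minority of cells, the part of cells without a value in R² was not tested. The highest R² of a member was 0.0297, for *Ncan* in culture 1, with 0.0108 in culture 2. *Ptprz1* had 0.0188 and 0.00595, *Cspg5* 0.0174 and 0.00253, and *Ptn* 0.0156 and 0.0136. The median gene of the table had 0.00325 and 0.00237, and all 10 members in culture 1 and 8 in culture 2 lay above it. For scale, the mitotic gene *Top2a* had 0.666 and 0.655.

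The small changes along θ had features in common between cultures for some members. *Ncan* was highest from 1.75π to 2π, with a mean of 4.15 and 4.09. Its lowest means of 8 bins were 2.56 from 1π to 1.25π in culture 1 and 2.89 from 1.5π to 1.75π in culture 2. The study takes 0.25π to 1.5π as proliferating and the rest as G1/G0. By that cut both the highest bin and the lowest bin of culture 2 are G1/G0. *Sparcl1* had 1.26 and 0.928 from 1.75π to 2π, but in culture 2 the bin from 0 to 0.25π had 0.922 ± 0.0716 (SEM over its cells). The lowest means of *Sparcl1* were 0.650 and 0.558. *Ptn* had its lowest mean from 1π to 1.25π in both cultures, at 31.9 and 27.8, and its line had its maximum near 0.5π (culture 1) and 0.43π (culture 2). The line of *Cspg5* had its maximum near 0.31π and 0.36π and spanned 0.41 and 0.18 on the log2 scale. That position depended on the smoothing. The mean maximum of both cultures for *Cspg5* was at 0.165π with a span of 0.1 and at 0.56π with a span of 0.5. For *Ptn* it was at 0.46π and 0.54π with these spans. For *Tnc*, *Gpc4*, *Sdc3* and *Sparcl1* the maxima of the 2 lines lay more than 0.5π apart, so no position is given for them. The bins from 1.25π to 1.75π are thin, with 85 and 64 cells in culture 1 and 279 and 189 in culture 2.

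**Figure D5:**
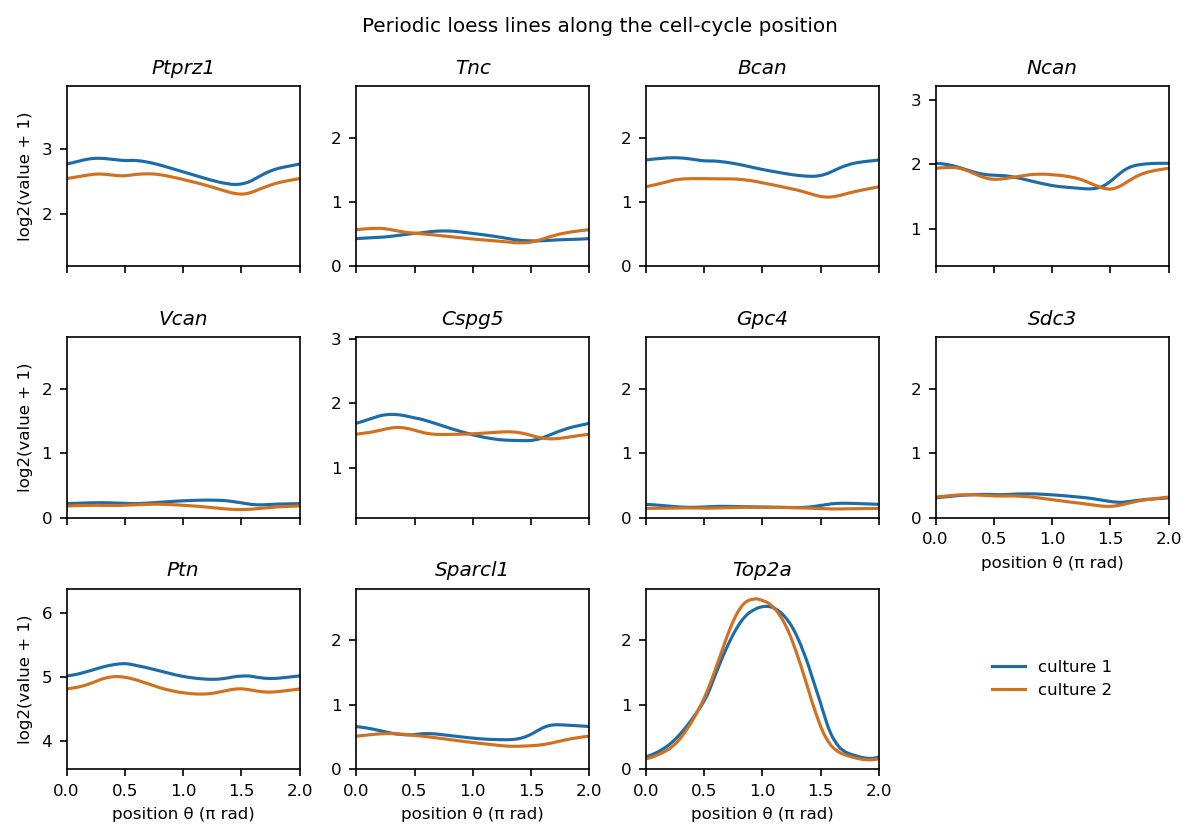
Periodic loess lines of log2(value + 1) against the cell-cycle position θ, in units of π rad, for the 10 genes and for *Top2a* in each culture; every panel spans the same height of 2.8. The lines of the 10 genes are nearly flat (0.026 to 0.41 from lowest to highest point) beside that of *Top2a* (2.36 and 2.50).

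Of 155 entries in 8 lists of related matrix genes, 97 were measured, and 1 was called along θ, *Hmmr*, a hyaluronan-binding protein that also sits on the mitotic spindle, with an R² of 0.652 and 0.586. Among 12 of 24 other proteoglycan cores, the amyloid precursor family genes *Aplp2* (3.27 in culture 1 and 2.75 in culture 2) and *App* (1.3 and 0.960) were highest, followed by *Sdc2* (0.362 and 0.304). Only 5 of 13 genes for hyaluronan and its binding proteins were measured, and *Cd44*, the hyaluronan receptor, had a mean of 0.375 and 0.390 and *Cemip2*, a hyaluronidase, 0.208 and 0.201. The tiers of the members thus overlap those of the other cores, and *Ptn* and *Ptprz1* stood above all of them in both cultures.

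The median level of the sugar chain enzymes was near that of the median gene of the table, at 0.233 and 0.213. It was 0.196 for chondroitin sulfate and 0.259 for heparan sulfate (mean of both cultures). Of 17 measured genes for chondroitin sulfate synthesis, the sulfotransferase *Chst7* was highest at 1.63 and 1.40, and the linkage enzymes *B3gat3* and *Xylt1* had 0.586 and 0.642, and 0.580 and 0.602. Of 13 for heparan sulfate, the editing sulfatase *Sulf2* had 0.985 and 1.03, the sulfotransferase *Hs2st1* 0.738 and 0.622 and the polymerase *Ext1* 0.514 and 0.543. Of 20 partners and receptors, *Ncl*, nucleolin, a cell-surface binder of pleiotrophin as well as a nucleolar protein, had 12.2 and 10.7 and an R² of 0.103 and 0.0465, just under the call in culture 2. The integrin subunit *Itgb1* had 4.06 and 3.39 and *Ctnnb1*, β-catenin, 2.15 and 1.95.

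Among 8 measured matricellular genes, *Sparc*, the paralog of *Sparcl1*, had a mean of 2.54 and 2.61, against 0.968 and 0.841 for *Sparcl1*, and *Thbs3* and *Spon1* had 0.381 and 0.435, and 0.321 and 0.305. Basement membrane genes were low, with *Lamc1* the highest of 9 at 0.219 and 0.226, followed by *Col4a5* at 0.133 and 0.130 and *Lama5* at 0.106 and 0.123. Of 13 proteases and inhibitors, the inhibitor *Timp4* had 2.25 and 2.19, the plasminogen activator *Plat* 1.42 and 1.03 and the membrane protease *Mmp15* 1.37 and 1.35. *Timp4* is the third gene most like *Sparcl1*, with 0.330 and 0.214.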

How the data were processed

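Dissociated neurospheres of 2 cultures were profiled with a 10x 3′ kit, whose version differs between the labels and the methods. Per the labels, the authors used alevin, Salmon 1.3.0 and Seurat 3.2.2 with GRCm38. The deposited expression table is a signal that the authors normalised for the depth of each cell. The methods name library-size scaling with a log2 transform in scuttle and then integration of the cultures in Seurat; which of these steps the table holds is not given in the sources used here. Its values are not on a log scale, and their sums per cell are nearly constant. Total UMIs are sums of estimated counts deposited by the authors, with medians of 19477 and 14637. No count model was used, since the values are not whole. The authors had filtered cells, and no filter or doublet caller was added.

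Values were analysed as log2(value + 1) with Python 3.11.15, numpy 2.4.6 and scipy 1.17.1, within each culture. Loess used degree 2 and a span of 0.3. The plan assumed no test, and none was run. A list score is the mean log2(value + 1) of its measured markers. The named genes are the members, the 5 genes with the highest lower r for each, and of each list the 3 highest genes and any called; a gene among the first 5 of some members is not reported here. The steps of 1 UMI, the depth-matched shares and the set without shared barcodes were added after seeing the data. The members and lists were chosen with earlier results of these data known. Functions were tested on simulated data. Nothing in the labels says from how many embryos each culture came.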

Additional observations from a re-analysis of the deposited data

How the results depend on the processing

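The count of 0 members called along θ was also 0 under all 13 alternatives. These were R² thresholds of 0.02 and 0.1, 1 harmonic, the loess line, a pseudocount of 0.1, partial R² given depth and cells between the depth quartiles. The rest were 2 other scalings, a filter on genes in under 10% of cells, either culture alone and the set without shared barcodes. The threshold of 0.1 could only lower the count and the filter removed no member, so neither could have changed it. The called share of all genes was 2.25% to 8.34%. The median pair correlation of 0.0495 moved by more than the SD between cultures (0.00532) to 0.0385 with Spearman, 0.0419 with depth and position taken out, 0.0365 between the depth quartiles and 0.0146 in approximate UMIs over the 28 pairs that could be formed. It was 0.102 when values were multiplied by total UMIs, which puts the depth of the cell into every gene. With 1 culture left out it was 0.0401 to 0.0476. The 9 single pairs kept their sign in the 78 values run for them, with approximate UMIs run only for the 6 pairs without *Ptprz1* or *Ptn*. Of these values 18 moved by more than the SD between cultures. Multiplied by total UMIs, r went from -0.115 to -0.0255 for *Tnc* and *Cspg5* and from -0.114 to -0.0303 for *Vcan* and *Ptn*. All the positive pairs rose under it. All 9 pairs had 1 sign in both cultures from the start, so their values with 1 culture left out could not reverse. By the SD between cultures these values could not move either. The 10 marker correlations of at least 0.1 in both cultures kept theirs with depth and position taken out, the only alternative run for them. Positions of maxima moved in 10 of 50 values, 9 of them with another span. A move was counted against the SD between cultures, so the values with 1 culture left out could not move, and their lack of movement shows nothing. The cause of these shifts was not tested. Depth limits detection of some low members: in culture 1, *Gpc4* had a value in 6.05% of the 25% of cells with the lowest depth and 25.5% of those with the highest.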

Other observations

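The deposited stages of 3 methods did not give 1 account of the members. The study reports that SchwabeCC leaves many cells without a label and wrongly places G0/G1 cells in other stages. It also reports that cyclone appears to label S cells poorly. The part of these limits in the values below was not tested. By Seurat, mean *Ncan* was 4.03 in G1 cells, 3.15 in S cells and 2.71 in G2M cells of culture 1, and 4.02, 3.41 and 3.42 in culture 2. By cyclone, *Ncan* was also highest in G1 cells, at 3.62 and 3.81, against 2.61 and 3.46 in G2M cells. By SchwabeCC, which left 2451 and 3151 cells unassigned, *Ncan* was highest in G2 cells of both cultures, at 3.79 and 4.38, against 3.21 and 3.701 in M.G1 cells. *Sparcl1* was 1.22 in G1 cells and 0.720 in G2M cells of culture 1 and 0.931 and 0.628 in culture 2 by Seurat, and 1.05 and 0.690, and 0.879 and 0.653, by cyclone. By SchwabeCC it was highest in G2 cells of culture 1, at 1.21, and in G1.S cells of culture 2, at 0.95.

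*Ptn* was highest in S cells by Seurat, at 36.8 and 33.0, in G1 cells by cyclone, at 35.6 and 31.1, and in G1.S cells by SchwabeCC, at 37.0 and 32.7. Cyclone called only 133 and 56 cells S, and *Ptn* was at 33.8 and 29.2 in them. *Ptn* was lowest in G2M cells by Seurat, at 32.4 and 28.6, and by cyclone, at 31.8 and 28.5, and in G2 cells by SchwabeCC, at 32.8 and 28.3. *Tnc* was lowest in G2M cells of culture 2 by Seurat, at 0.463, against 0.712 in G1 cells, and had 0.646 in both stages of culture 1.

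Detection of the members followed depth unevenly. In culture 1, *Tnc* had a value in 15.7% of the 25% of cells with the lowest depth and in 42.2% of those with the highest, and *Sparcl1* in 17.9% and 48.0%. *Vcan* had 27.4% and 30.1% in culture 1, and 10.3% and 18.9% in culture 2. Its r with log2 total UMIs was -0.128 in culture 1 and 0.0350 in culture 2, against 0.126 and 0.129 for *Tnc* and 0.147 and 0.0433 for *Sparcl1*.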
